A study of Mus musculus with 6 samples.

Results

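The genes described are 10 chromatin regulators: the DNA methyltransferases Dnmt1, Dnmt3a and Dnmt3b, the maintenance cofactor Uhrf1, the 5-methylcytosine dioxygenase Tet1, the Polycomb genes Ezh1, Ezh2 and Suz12, and the architectural genes Hmga1 and Hmga2. They were chosen by name, with earlier results of these data known. For each gene the probe set named to it alone with the highest mean over the 6 arrays was used. This gave 9 genes out of 18193 in the table. Hmga1 is not analysed here, since no probe set used was named to it.

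RNA of mouse heart cells of the C57BL/6J strain was hybridised to 6 Affymetrix arrays, 2 in each of 3 groups. Neonatal cardiomyocytes (heart muscle cells) and neonatal cardiac fibroblasts (connective tissue cells of the heart) came from male and female mice at postnatal day 1 and were purified over Percoll, through which cells sort by density. Adult cardiomyocytes came from male mice at 8 weeks and were released by Langendorff perfusion of the heart. In any comparison of adult with neonatal cells, the effects of age, of sex and of the way cells were isolated cannot be told apart. Against neonatal fibroblasts, cell type differs as well. No treatment or genetic change is named in the labels for any group. Separate animals or preparations are not named for the 2 arrays of each group, so p-values measure the spread between arrays, which may be technical.

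In dividing cells, Uhrf1 binds newly copied DNA that is methylated on the old strand and recruits Dnmt1, which methylates the new strand. Dnmt3a and Dnmt3b set methylation at unmarked sites, and Tet1 oxidises it. Ezh2 or Ezh1 is the catalytic subunit of Polycomb repressive complex 2 (PRC2), which methylates lysine 27 of histone H3, and Suz12 is a core subunit that the complex needs. Ezh2 is known for its high level in dividing cells and Ezh1 for its presence in cells that no longer divide. Hmga proteins bind AT-rich DNA in the minor groove, and Hmga2 is known as a fetal gene.

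Values are log2 RMA values (a background-corrected, quantile-normalised summary over the probes that make up each set), differences are log2 differences of group means, and the test is limma with Benjamini-Hochberg adjustment over 18193 genes at a threshold of 0.05. Rose and fell are kept for genes past it. Arrays were grouped by source name; for replicate 1 of both neonatal groups the title gives the opposite cell type. Replicates 1 and 2 of neonatal cardiomyocytes had cardiomyocyte marker medians (10 genes) of 14.0 and 13.9, those of fibroblasts 7.90 and 11.5, and those of adult cells 14.2 and 14.2. For 10 fibroblast markers the medians were 10.3 and 8.93, then 12.6 and 11.9, then 8.24 and 9.81. Of the neonatal replicate 1 arrays, the one with cardiomyocytes as source name had the higher cardiomyocyte median, 14.0 against 7.90. It also had the lower fibroblast median, 10.3 against 12.6, so these markers go with the source names and not with the titles. Leukocyte markers had medians of 6.94 and 5.25, 11.3 and 8.82, and 6.65 and 8.27. Fibroblast replicate 2 thus carried more cardiomyocyte transcripts than replicate 1, and adult replicate 2 more fibroblast transcripts than adult replicate 1. In such bulk samples, fewer cells of a type and less RNA per cell cannot be told apart.

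The promoters of Ezh2, Uhrf1, Dnmt1 and Hmga2, whose levels on all 4 neonatal arrays lay above both adult arrays, and of Ezh1, which lay the other way, are shown because adult and neonatal arrays did not overlap for them. The windows run from 250 bases before to 50 bases after a RefSeq transcript start (GRCm38.p6) and are on the minus strand for Ezh2, Dnmt1, Hmga2 and Ezh1 and on the plus strand for Uhrf1. They are Ezh2 at chr6:47594981-47595280, Uhrf1 at chr17:56304063-56304362, Dnmt1 at chr9:20952574-20952873, Hmga2 at chr10:120476420-120476719 and Ezh1 at chr11:101226414-101226713. Capitals mark matches, on either strand, to TTTGGCGC, TTTCCCGC or TTTCGCGC, letters of the kind bound by E2F factors, which drive genes of DNA replication.
Ezh2: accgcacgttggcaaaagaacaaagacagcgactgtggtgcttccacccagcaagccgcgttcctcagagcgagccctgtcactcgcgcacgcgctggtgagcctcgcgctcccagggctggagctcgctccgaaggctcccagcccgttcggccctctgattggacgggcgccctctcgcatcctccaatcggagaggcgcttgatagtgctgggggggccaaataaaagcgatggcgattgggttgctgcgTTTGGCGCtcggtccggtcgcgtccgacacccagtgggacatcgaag
Uhrf1: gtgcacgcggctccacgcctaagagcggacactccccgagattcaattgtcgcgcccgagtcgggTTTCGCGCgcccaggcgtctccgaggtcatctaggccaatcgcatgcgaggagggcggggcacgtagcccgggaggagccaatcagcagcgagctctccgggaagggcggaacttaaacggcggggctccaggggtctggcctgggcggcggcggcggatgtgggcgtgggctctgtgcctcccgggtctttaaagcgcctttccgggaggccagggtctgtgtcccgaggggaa
Dnmt1: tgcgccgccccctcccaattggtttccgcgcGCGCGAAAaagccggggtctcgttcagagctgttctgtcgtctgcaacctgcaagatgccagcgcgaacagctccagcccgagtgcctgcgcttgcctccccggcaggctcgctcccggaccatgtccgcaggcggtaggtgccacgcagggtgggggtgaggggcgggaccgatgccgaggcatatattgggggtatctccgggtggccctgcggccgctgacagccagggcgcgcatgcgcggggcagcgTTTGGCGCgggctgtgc
Hmga2: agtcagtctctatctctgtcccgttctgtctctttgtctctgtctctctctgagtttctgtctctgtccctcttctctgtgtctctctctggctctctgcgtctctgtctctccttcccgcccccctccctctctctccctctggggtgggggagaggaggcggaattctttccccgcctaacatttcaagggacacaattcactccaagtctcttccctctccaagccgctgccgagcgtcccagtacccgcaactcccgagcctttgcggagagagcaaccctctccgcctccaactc
Ezh1: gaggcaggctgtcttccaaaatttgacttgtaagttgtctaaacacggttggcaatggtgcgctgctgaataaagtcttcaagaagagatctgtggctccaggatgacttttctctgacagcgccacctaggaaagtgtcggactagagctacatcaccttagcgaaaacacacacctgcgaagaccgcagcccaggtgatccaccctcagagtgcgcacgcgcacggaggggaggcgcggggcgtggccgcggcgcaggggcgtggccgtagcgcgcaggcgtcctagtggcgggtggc

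Counting the first transcribed base as 1 and the base before it as −1, a match began at position 4 in Ezh2, at −185 in Uhrf1, and at −219 and 34 in Dnmt1. The table lists 16 windows for the 10 genes, and 4 of the windows, of Dnmt1, Uhrf1, Ezh2 and Suz12, held a match, against 1.84% of all 32851 windows. Dnmt1 and Uhrf1 have other listed starts whose windows held none, and for both genes the window with a match is the one shown. Of the proliferation genes used further on, 14 of 17 had a window and 5 held a match. Ezh1 and Hmga2 had no match in their windows, which says only that these letters are not there. The Ezh2, Uhrf1 and Dnmt1 windows shown held 31, 33 and 33 CpG dinucleotides, that of Ezh1 23 and that of Hmga2 12, against a median of 7 over all windows. The windows not shown held fewer, 12 for Uhrf1 and 2 and 12 for Dnmt1, so these counts depend on the start taken. A match is a description of letters, and no binding was measured.

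Between adult and neonatal cardiomyocytes, 2 of the 9 genes fell, Ezh2 and Uhrf1, and 0 rose. In limma 2.30% of all genes passed in this comparison, 1.22% lower in adult cells. A further 6 genes had lower means in adult cells without passing, and Ezh1 alone had a higher mean. The median difference of the 9 genes was −1.29, against 0.09 over all genes. The arrays did not overlap for 8 of the 9 genes, 7 lower and 1 higher, where 57.7% of all genes did not overlap, 23.8% lower and 33.9% higher.

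Ezh2, the catalytic subunit named above, measured 9.27 and 9.10 in neonatal cardiomyocytes, 8.50 and 9.02 in fibroblasts, and 6.37 and 6.41 in adult cardiomyocytes. The adult pair lay far below all 4 neonatal arrays, and the groups did not overlap. The difference between adult and neonatal cardiomyocytes was −2.79 ± 0.23 (SE), 6.93-fold lower, with an adjusted p of 0.0198 in limma. Ezh2 has 1 probe set here, 1416544_at. Only 0.995% of all genes had a more negative difference.

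Uhrf1, the cofactor that brings Dnmt1 to copied DNA, measured 8.42 and 8.71 in neonatal cardiomyocytes, 8.42 and 9.22 in fibroblasts, and 5.52 and 5.85 in adult cardiomyocytes. Both adult values lay well below every neonatal value, with no overlap. The gene fell by 2.88 on the log2 scale (SE 0.32), 7.38-fold, with an adjusted p of 0.0284 in limma. Its other probe set had a difference of −1.63 at a lower mean level, 6.37 against 7.69.

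These 2 calls rested on the 4 cardiomyocyte arrays together. Without neonatal cardiomyocyte replicate 1 or 2, or adult replicate 1 or 2, the limma adjusted p was 0.0523, 0.0616, 0.180 and 0.131 for Ezh2, and 0.0632, 0.101, 0.195 and 0.150 for Uhrf1, with differences between −2.71 and −2.88 and between −2.72 and −3.05. Grouping by title instead, the differences were −2.41 (limma adjusted p = 0.0538) for Ezh2 and −2.88 (limma adjusted p = 0.0573) for Uhrf1. The levels in adult cells stood below all 4 neonatal arrays whichever label is used.

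**Figure D1:**
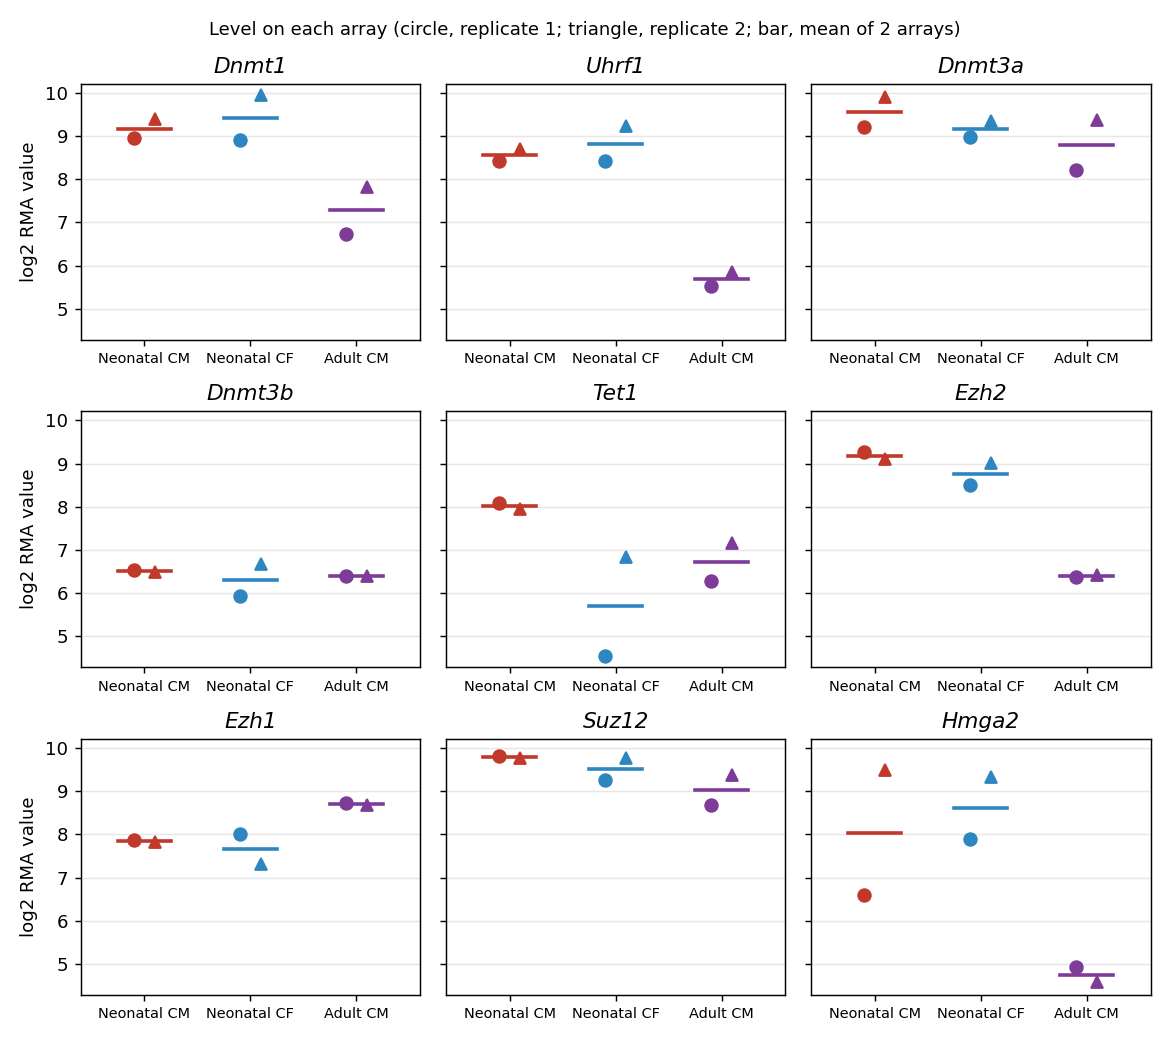
Level of each of the 9 genes on each array (y axis, log2 RMA value) in neonatal cardiomyocytes (CM), neonatal cardiac fibroblasts (CF) and adult cardiomyocytes; circles are replicate 1, triangles replicate 2, and bars the mean of 2 arrays. Ezh2, Uhrf1, Dnmt1 and Hmga2 lie lower on both adult arrays than on any neonatal array, and Ezh1 lies higher.

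Dnmt1, the maintenance methyltransferase, measured 8.96 and 9.38 in neonatal cardiomyocytes, 8.90 and 9.94 in fibroblasts, and 6.73 and 7.83 in adult cardiomyocytes. Adult values were below all neonatal ones, and adult replicate 2 was the higher of the adult pair. The difference from neonatal cardiomyocytes was −1.89 ± 0.51 (SE), 3.71-fold, with an adjusted p of 0.127 in limma. The probe set used, 1435122_x_at, is of a kind that may also bind other transcripts. The other probe sets of the gene, at mean levels of 8.55 and 7.34, gave −1.70 and −1.52.

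Hmga2 measured 6.60 and 9.48 in neonatal cardiomyocytes, 7.89 and 9.33 in fibroblasts, and 4.93 and 4.57 in adult cardiomyocytes. It had the widest spread of the 9 genes within neonatal cardiomyocytes, an SD of 2.04, and replicate 2 was the higher array in both neonatal groups. The difference between adult and neonatal cardiomyocytes was −3.29 ± 1.02 (SE), 9.77-fold lower, with an adjusted p of 0.154 in limma. Without neonatal cardiomyocyte replicate 2 it was −1.85 (limma adjusted p = 0.317), and without replicate 1 it was −4.73 (limma adjusted p = 0.0625). With all arrays, 0.555% of all genes had a more negative difference. The 4 Hmga2 probe sets had the same sign here, with differences of −3.29, −3.20, −2.65 and −0.73 in order of falling mean level. On the third of these, neonatal cardiomyocyte replicate 1 measured 4.39, close to the adult arrays at 4.24 and 3.85, while replicate 2 lay far above them.

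Ezh1, the other catalytic subunit of PRC2, ran the opposite way. It measured 7.86 and 7.82 in neonatal cardiomyocytes, 8.02 and 7.30 in fibroblasts, and 8.74 and 8.69 in adult cardiomyocytes. The adult arrays were above all 4 neonatal arrays and close to each other. The difference was 0.87 ± 0.27 (SE), 1.83-fold higher, with an adjusted p of 0.155 in limma. All 4 Ezh1 probe sets had a positive difference, between 0.16 and 0.87. Those not used had mean levels of 5.84, 4.10 and 3.31, against 8.07 for the one used. Levels of 4.10 and 3.31 lie below the lower quartile of every array, 4.19 to 4.37, so their signs say little. Levels of Ezh1 and Ezh2 come from different probes and were not set against each other.

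Of the 9 genes, 5 had adult arrays clear of all 4 neonatal arrays, Dnmt1, Uhrf1, Ezh2 and Hmga2 below and Ezh1 above. The neonatal arrays hold cardiomyocytes and fibroblasts, so cell type differs here beside age, sex and isolation. The share over all genes was 44.4%, with 18.5% below and 25.9% above.

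**Figure D2:**
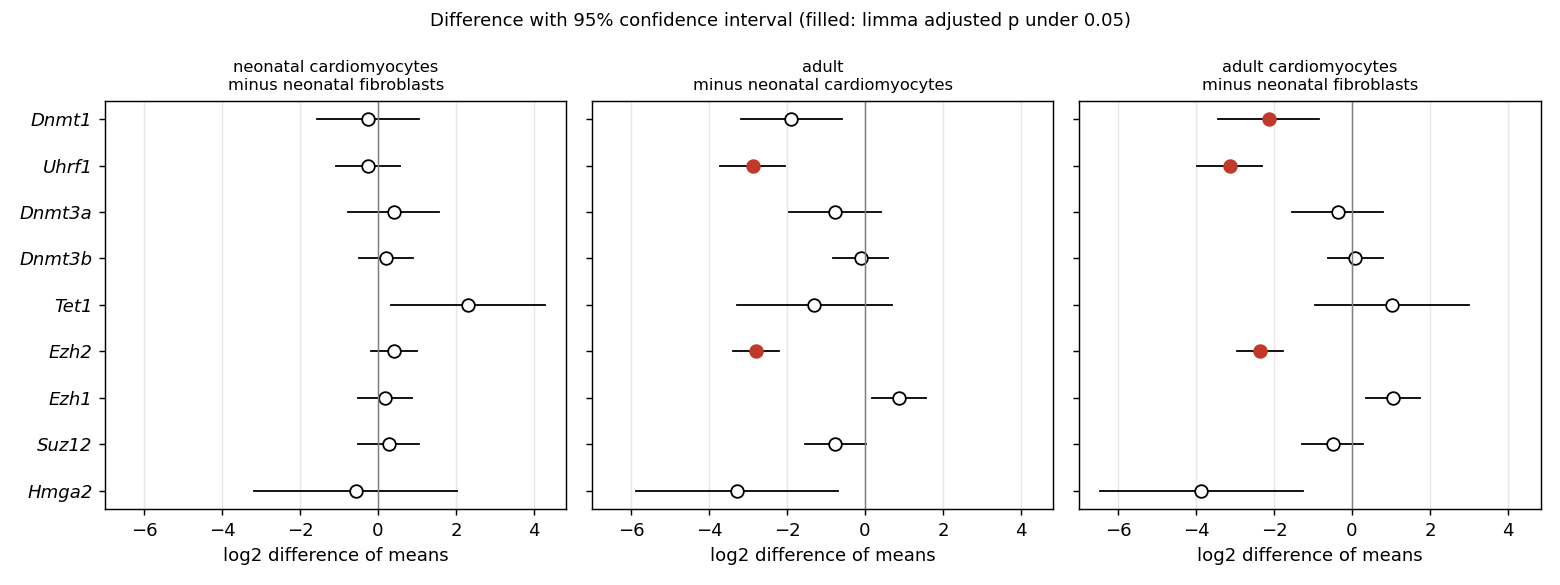
Log2 difference of group means (x axis) for each gene in the 3 comparisons, with the 95% confidence interval of the limma fit; filled points passed an adjusted p of 0.05. Ezh2 and Uhrf1 are filled in both comparisons with adult cells, Dnmt1 in 1, and no gene is filled between the neonatal cell types.

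The other genes had smaller or less even differences between adult and neonatal cardiomyocytes. Suz12, the PRC2 core subunit, measured 9.82 and 9.76 in neonatal cardiomyocytes, 9.26 and 9.77 in fibroblasts, and 8.68 and 9.36 in adult cardiomyocytes. Its difference was −0.77 ± 0.31 (SE) with an adjusted p of 0.224 in limma and a 95% interval from −1.55 to 0.01. Of its 6 probe sets, 5 had that sign. It was −0.43 without adult replicate 1 and −1.11 without adult replicate 2. The adult arrays overlapped the fibroblast arrays.

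Dnmt3a, which sets new methylation, measured 9.21 and 9.91 in neonatal cardiomyocytes, 8.98 and 9.34 in fibroblasts, and 8.21 and 9.37 in adult cardiomyocytes. All 3 groups overlapped. The difference between adult and neonatal cardiomyocytes was −0.77 (95% interval −1.94 to 0.40, limma adjusted p = 0.368), and 4 of 5 probe sets had that sign. It was −0.19 without adult replicate 1 and −1.35 without adult replicate 2, and −1.12 and −0.42 without neonatal cardiomyocyte replicates 1 and 2.

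Dnmt3b, the other enzyme of new methylation, lay between 5.94 and 6.67 on all 6 arrays. Its difference between adult and neonatal cardiomyocytes was −0.11 (95% interval −0.81 to 0.58, limma adjusted p = 0.825). Of its 2 probe sets 1 had that sign. A change of either direction up to those bounds is not excluded by these arrays.

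Tet1, the dioxygenase, measured 8.09 and 7.94 in neonatal cardiomyocytes, 4.55 and 6.85 in fibroblasts, and 6.29 and 7.16 in adult cardiomyocytes. Both neonatal cardiomyocyte arrays lay above the other 4, and fibroblast replicate 1 was the lowest. The difference between adult and neonatal cardiomyocytes was −1.29 ± 0.78 (SE), with an adjusted p of 0.369 in limma. It was −0.86 without adult replicate 1 and −1.73 without adult replicate 2.

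**Figure D3:**
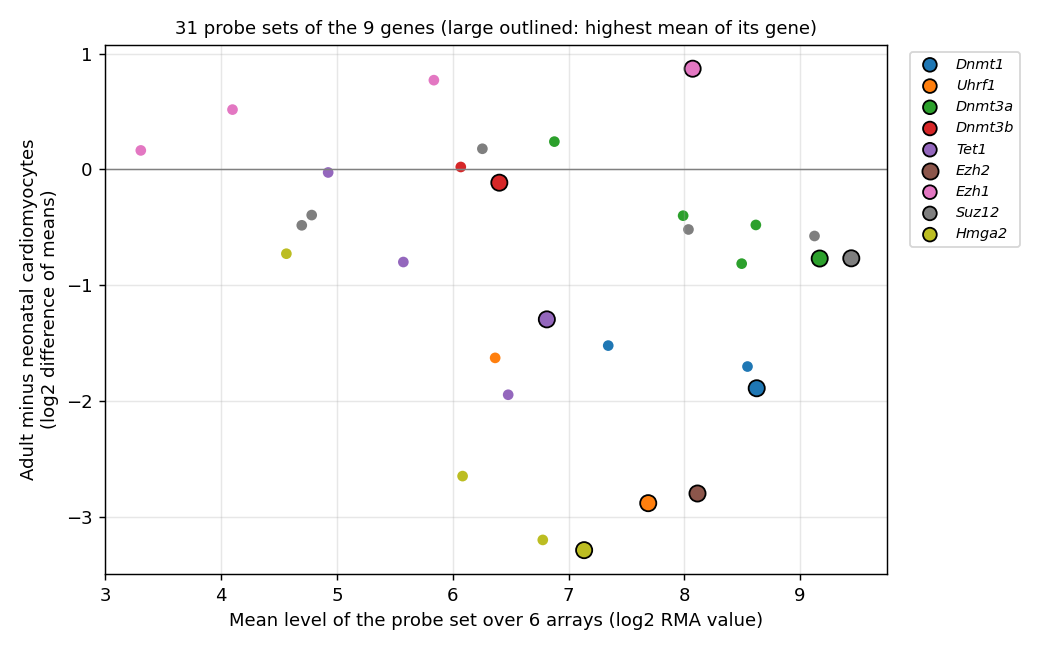
The 31 probe sets of the 9 genes, by mean level over the 6 arrays (x axis, log2 RMA value) and by the difference between adult and neonatal cardiomyocytes (y axis, log2); large outlined points are the probe sets used. All probe sets of Dnmt1, Uhrf1, Tet1, Ezh2 and Hmga2 lie below 0 and all those of Ezh1 above it, while those of Dnmt3a, Dnmt3b and Suz12 lie on both sides.

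Between neonatal cardiomyocytes and neonatal fibroblasts 0 of the 9 genes passed in limma, where 0.819% of all genes did. At unadjusted p under 0.05 there was 1, Tet1, against 16.3% of all genes. The arrays did not overlap for Tet1 and Ezh2, both higher in cardiomyocytes, where 45.4% of all genes did not overlap and 22.3% were higher. Tet1 was 2.32 ± 0.78 (SE) higher in cardiomyocytes, 4.99-fold, with an adjusted p of 0.243 in limma. Its 4 probe sets had that sign, at 2.32, 2.88, 1.39 and 0.19 in order of falling mean level. Fibroblast replicate 2, which had the higher cardiomyocyte marker median, also had the higher Tet1 level, 6.85 against 4.55; the part of cardiomyocyte RNA in this was not tested. Without that array the Tet1 difference was 3.46 with an adjusted p of 0.0480 in limma, without fibroblast replicate 1 it was 1.17 (limma adjusted p = 0.461), and with the titles' groups it was −1.22.

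For the other 8 genes the differences between the neonatal cell types lay between −0.57 (Hmga2) and 0.42 (Ezh2), with limma adjusted p between 0.468 and 0.899. The 95% interval was −0.17 to 1.01 for Ezh2, −1.08 to 0.57 for Uhrf1, −1.55 to 1.05 for Dnmt1 and −0.51 to 0.87 for Ezh1. It was wider for Hmga2, from −3.17 to 2.02. With 2 arrays a group, differences within these bounds are not excluded.

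Between adult cardiomyocytes and neonatal fibroblasts 3 of the 9 genes fell, Uhrf1, Ezh2 and Dnmt1, where 21.0% of all genes passed in limma and 11.0% were lower in adult cells. This comparison shares its adult arrays with the one between cardiomyocytes. Uhrf1 fell by 3.14 (SE 0.32, limma adjusted p = 0.00822), Ezh2 by 2.37 (SE 0.23, limma adjusted p = 0.00780) and Dnmt1 by 2.14 (SE 0.51, limma adjusted p = 0.0427). Hmga2 had a difference of −3.86 (limma adjusted p = 0.0542) and Ezh1 of 1.05 (limma adjusted p = 0.0513), neither past the threshold. The Dnmt1 call ended when any 1 of the 6 arrays was left out, with limma adjusted p from 0.0609 to 0.184. The Ezh2 and Uhrf1 calls ended without adult replicate 1 (0.0734 and 0.0744) or adult replicate 2 (0.0534 and 0.0528). Dnmt3a, Dnmt3b, Suz12 and Tet1 differed by −0.37, 0.09, −0.49 and 1.02 without passing.

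In the order of group means, Dnmt1, Uhrf1 and Hmga2 ran from fibroblasts through neonatal to adult cardiomyocytes, with the first pair of neighbours overlapping. Ezh2, Suz12 and Dnmt3a ran from neonatal cardiomyocytes through fibroblasts to adult cells. Of the neighbours in these orders only those of Uhrf1 (neonatal and adult cardiomyocytes) and of Ezh2 (fibroblasts and adult cardiomyocytes) passed the test. Ezh1 ran from adult to neonatal cardiomyocytes to fibroblasts, and neither neighbouring pair passed. Dnmt3b and Tet1 ran from neonatal to adult cardiomyocytes to fibroblasts, again with no neighbouring pair past the threshold.

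Genes of cell division were lower on the same adult arrays. The medians of 16 proliferation genes, which mark DNA replication and mitosis, were 9.96 and 9.63 in neonatal cardiomyocytes, 9.63 and 10.2 in fibroblasts, and 5.44 and 6.19 in adult cardiomyocytes. In limma 11.0% of all genes were called lower in adult cells against fibroblasts, and 1.22% against neonatal cardiomyocytes. Between adult and neonatal cardiomyocytes 11 of the 16 fell and 0 rose, with a median of −3.12 against 0.09 over all genes. Birc5, of chromosome segregation, fell by 5.70, the ribonucleotide reductase gene Rrm2 by 5.32, the mitotic kinase gene Cdk1 by 5.12, Mki67 by 4.74, the topoisomerase gene Top2a by 4.73 and the cyclin gene Ccna2 by 4.55. Epicardial markers, of the cell layer that covers the heart, were lower on the adult arrays too, their medians being 7.66 and 8.11 for neonatal cardiomyocytes, 10.3 and 8.05 for fibroblasts and 5.58 and 6.43 for adult cells. Between adult and neonatal cardiomyocytes 8 of 8 had lower means, with a median of −1.89. For 7 of them the arrays did not overlap, where 23.8% of all genes lay lower without overlap. Of the 8, 1 fell, Tbx18, by 3.29 (limma adjusted p = 0.0425). The part of dividing cells, or of epicardial cells, in the lower Ezh2, Uhrf1 and Dnmt1 levels was not tested. The 11 calls became 0 without neonatal cardiomyocyte replicate 2 or either adult array, and 5 when any 1 of the other 3 was left out. Against fibroblasts 15 of the 16 fell, 0 of them called without adult replicate 1 and 7 without adult replicate 2.

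Levels of several of the 9 genes also differed between the adult arrays together with markers of other cells. Adult replicate 2 was higher than replicate 1 in 9 of 10 fibroblast, 10 of 10 leukocyte, 8 of 10 endothelial, 10 of 10 smooth muscle and pericyte and 6 of 8 epicardial markers. The median gaps were 1.95, 1.53, 1.05, 1.06 and 0.49 in that order, and −0.03 for 10 cardiomyocyte markers. Among the 9 genes, the higher adult array was also replicate 2 for Dnmt3a (9.37 against 8.21), Dnmt1 (7.83 against 6.73), Tet1 (7.16 against 6.29) and Suz12 (9.36 against 8.68). In all it was replicate 2 for 7 of the 9 genes, Uhrf1 (5.85 against 5.52) among them, while Hmga2 was higher on replicate 1 (4.93 against 4.57). Of the 16 proliferation genes 14 were higher on replicate 2, with a median gap of 0.58. The share of all genes higher on replicate 2 is not given here. Over all probe sets the upper quartile was higher on replicate 2 (7.58 against 7.45). The median (5.63 against 5.65) and the lower quartile (4.33 against 4.37) were lower there. Ezh2 and Ezh1 hardly differed between the adult arrays (6.37 and 6.41, and 8.74 and 8.69). The part of other cells in the adult Dnmt1 and Dnmt3a levels was not tested.

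The remaining genes of the same pathways gave calls for Mtr and Hmgn3 alone between adult and neonatal cardiomyocytes, where 2.30% of all genes passed in limma. Their calls against fibroblasts, given list by list here, became 0 in every list without adult replicate 1, and 0 without adult replicate 2 except for 1 germline gene. Of 9 PRC2 partners 0 passed in limma, and 3 lay lower at unadjusted p under 0.05, which 22.8% of all genes met, with a list median of −0.13. Mtf2, which helps PRC2 find CpG-rich DNA, had a difference of −1.02 (limma adjusted p = 0.0935), and the histone chaperone gene Rbbp4 one of −0.95 (limma adjusted p = 0.0705). Against fibroblasts, Eed, the subunit that reads the mark PRC2 makes, fell by 1.21, Rbbp4 fell by 0.95, and Jarid2, which recruits PRC2, rose by 1.60. Jarid2 measured 9.68 and 8.81 in neonatal cardiomyocytes, 7.48 and 7.57 in fibroblasts, and 9.04 and 9.21 in adult cardiomyocytes, so both cardiomyocyte groups lay above the fibroblasts.

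Polycomb repressive complex 1 (PRC1) reads the mark of PRC2 through Cbx proteins. Of 18 of its genes 0 passed between adult and neonatal cardiomyocytes in limma, with 1 higher and 4 lower at unadjusted p under 0.05. The 2 largest differences were of Cbx readers and opposite in sign, 1.70 for Cbx7 (limma adjusted p = 0.0846) and −1.66 for Cbx6 (limma adjusted p = 0.0653). Cbx7 measured 5.42 and 5.75 in neonatal cardiomyocytes, 5.89 and 5.35 in fibroblasts, and 6.87 and 7.70 in adult cardiomyocytes. Cbx6 measured 9.16 and 9.81 in neonatal cardiomyocytes, 8.87 and 9.24 in fibroblasts, and 7.66 and 7.99 in adult cells. Neither gene's adult arrays overlapped a neonatal array. Against fibroblasts, Cbx7 rose by 1.66, while the ubiquitin ligase gene Rnf2 fell by 1.47, Kdm2b by 1.28, Cbx6 by 1.23 and Pcgf3 by 1.01.

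Among 6 genes that remove the Polycomb marks or belong to their removing complexes, 0 passed in any of the 3 comparisons in limma, with 1 at unadjusted p under 0.05 between the neonatal cell types, 2 between the cardiomyocytes and 0 in the other comparison. The largest differences between adult and neonatal cardiomyocytes were −0.92 for Asxl2 and −0.77 for the demethylase gene Kdm6a. Of 18 other DNA methylation genes 0 passed between the cardiomyocyte groups in limma (3 higher and 4 lower at unadjusted p under 0.05). Gadd45a, linked to active demethylation, had the largest difference there, 2.29 (limma adjusted p = 0.156). Against fibroblasts the imprint keepers Zfp57 and Trim28 both fell by 0.95. Zfp57 was dim, between 4.69 and 5.99 on the 6 arrays, while Trim28 lay between 9.76 and 10.8.

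The methyl donor of all these enzymes is S-adenosylmethionine. Of 9 genes of its cycle, 1 rose between adult and neonatal cardiomyocytes: Mtr, methionine synthase, by 1.50 (SE 0.18, limma adjusted p = 0.0332). Mtr measured 7.56 and 7.25 in neonatal cardiomyocytes, 7.12 and 7.14 in fibroblasts, and 8.93 and 8.87 in adult cardiomyocytes. Against fibroblasts, Mtr rose by 1.77, the glycine methyltransferase gene Gnmt by 1.78 and Mat2b, a subunit of the enzyme that makes the donor, by 1.01, while Ahcy, which clears the used donor, fell by 1.03. The Mtr call between cardiomyocytes ended when any 1 of the 6 arrays was left out.

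Hmga2 belongs to the high mobility group proteins, of which 6 others were measured. Between adult and neonatal cardiomyocytes Hmgn3, a nucleosome-binding protein gene, fell by 2.53 (SE 0.36, limma adjusted p = 0.0432). It measured 10.7 and 10.1 in neonatal cardiomyocytes, 10.4 and 11.1 in fibroblasts, and 7.58 and 8.11 in adult cardiomyocytes. Hmgb2 had a larger difference between the cardiomyocyte groups, −3.55, which did not pass. Of the 6 genes 5 had lower means in adult cells, with a list median of −0.91. Against fibroblasts Hmgb2 fell by 3.47, Hmgn3 fell by 2.92 and Hmgn1 fell by 1.86. The Hmgn3 call between cardiomyocytes also ended when any 1 of the 6 arrays was left out.

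Hmga2 is also a known target of the let-7 microRNAs, which Lin28 proteins hold back. Of 11 genes of that axis 0 passed in any of the 3 comparisons in limma, with 0, 1 and 1 at unadjusted p under 0.05. The largest differences between adult and neonatal cardiomyocytes were −0.81 for the uridylyltransferase gene Tut4 and 0.65 for Igf2bp1.

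Genes known to be silenced by these enzymes were also followed. Of 24 Polycomb target genes, 16 lay below 6 on all arrays, as did 33.4% of all genes, and array medians ran from 4.85 to 5.45. Between adult and neonatal cardiomyocytes 0 passed in limma, with a median of 0.25 against 0.09 over all genes. At unadjusted p under 0.05, 4 were higher, where 22.8% of all genes met it in either direction. The lower quartile of all probe sets was 4.37 and 4.33 on the adult arrays, against 4.19 to 4.24 on the neonatal arrays. Its part in the median of these mostly dim genes was not tested. The largest differences were −1.02 for the cell cycle inhibitor gene Cdkn2b and −0.92 for Wt1, an epicardial factor, neither past the threshold. Against fibroblasts Tbx5, a heart transcription factor, rose by 1.67, Six4 by 0.95 and Hoxd13 by 0.90. Tbx5 measured 8.94 and 7.82 in neonatal cardiomyocytes, 5.82 and 6.10 in fibroblasts, and 7.65 and 7.61 in adult cardiomyocytes. Both cardiomyocyte groups thus lay above the fibroblasts, and the adult arrays lay below the neonatal cardiomyocyte arrays. Of 12 germline genes kept silent by DNA methylation, 11 lay below 6 on all arrays. The exception was Sycp3, a meiotic chromosome axis gene, at 4.33 and 4.41 in neonatal cardiomyocytes, 3.70 and 3.50 in fibroblasts, and 7.14 and 5.73 in adult cardiomyocytes. It rose by 2.84 against fibroblasts (limma adjusted p = 0.0181) and had a difference of 2.06 from neonatal cardiomyocytes (limma adjusted p = 0.0935).

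**Figure D4:**
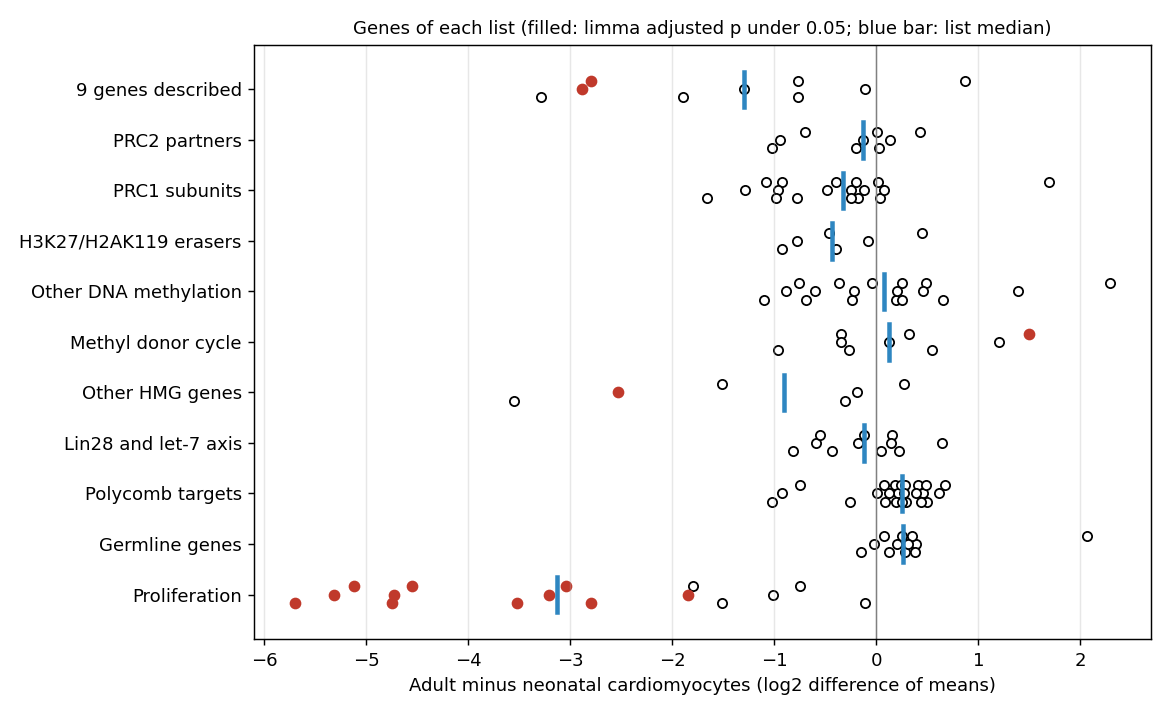
Log2 difference between adult and neonatal cardiomyocytes (x axis) for each gene of 11 lists; filled points passed a limma adjusted p of 0.05 and blue bars are list medians. Proliferation genes and the genes described lie furthest to the left, with medians of −3.12 and −1.29. The other high mobility group genes come next with −0.91, while PRC2 partners and PRC1 subunits lie near 0 with medians of −0.13 and −0.32. The 9 genes described stand at the top and the lists of the same pathways follow.

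Between neonatal cardiomyocytes and neonatal fibroblasts 0 genes of these lists passed in limma, where 0.819% of all genes did. An unadjusted p under 0.05 was met by 16.3% of all genes. In the lists, 1 gene each met it and was higher in cardiomyocytes among the PRC2 partners, PRC1 subunits, mark-removing genes, methyl donor genes, high mobility group genes and Polycomb targets. Of the proliferation genes 1 met it and was lower, and there was 0 in the other lists. The largest difference among the PRC2 partners was that of Jarid2, 1.72 (limma adjusted p = 0.0832), and among the methyl donor genes that of Mat2b, 0.88 (limma adjusted p = 0.0873). The demethylase gene Kdm6a had a difference of 0.89 (limma adjusted p = 0.173) and Gadd45a one of −1.72 (limma adjusted p = 0.329).

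The genes whose levels followed 4 of the genes most closely over the 6 arrays were sought among 6834 genes with an SD of at least 0.5, as a description in which the arrays share preparation and normalisation. For Ezh1 they were Mettl7a1, Il10rb and Lpin1, with Pearson r of 0.991, 0.986 and 0.983. For Uhrf1 they were Snrpb2, the mitotic inhibitor gene Fbxo5 and the checkpoint gene Trip13 (0.998, 0.997 and 0.996), and 436 genes had r over 0.95. For Hmga2 they were Elp6, Fam207a and Dzip1l (0.997, 0.996 and 0.993), with 210 genes over 0.95. For Dnmt3a they were Ppp4r3a, Cdkn2aip and Cavin1 (0.993, 0.988 and 0.969), with 7 genes over 0.95.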

How the data were processed

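The authors deposited 1 log2 value for each probe set and each of 6 one-colour Affymetrix arrays. The submitters' processing notes name RMA, without a version. Of 45101 probe sets, 64 are controls, 34945 were named to 1 gene by GEO's platform annotation, 932 to several and 9160 to none here. Symbols were checked against RefSeq through gene identifiers (0 updates). Each gene was represented by its probe set of highest average level on the 6 arrays.

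Groups followed the source name. The 3 group means were fitted to all 6 arrays (limma 3.58.1, lmFit and eBayes, under R 4.3.3; 3 residual and 2.18 prior degrees of freedom), with two-sided p-values adjusted over 18193 genes. The number of arrays limits the precision, and RMA gives no detection call. The fit was tested on simulated data.

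The members and lists were chosen with earlier results of these data known. Other list genes were named by rule: up to 6 per list and comparison past the threshold with non-overlapping arrays, or the 2 largest differences where none passed. Promoters are RefSeq windows (GRCm38.p6); 10 of 10 genes matched by symbol. In total 16 alternatives were run.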

Additional observations from a re-analysis of the deposited data

How the results depend on the processing

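Ezh2 and Uhrf1 kept a negative difference in both comparisons with adult cells under all 16 alternatives, and each passed the threshold between the cardiomyocyte groups in 10 of them. With an array left out, the number of the 9 genes called ran from 0 to 1 between the neonatal cell types, from 0 to 2 between the cardiomyocytes and from 0 to 3 against fibroblasts. Over all genes those counts ran from 0 to 437, from 0 to 164 and from 0 to 3823, against 149, 418 and 3829 with all arrays. In the same order of comparisons, all-gene counts were 0, 114 and 137 with the titles' groups, 0, 0 and 717 without both neonatal replicate 1 arrays, 0 and 164 in the first comparisons with only the groups compared, and 59, 0, 384 and 248 between the neonatal cell types with the mean of all probe sets, with every probe set tested, with genes of mean at least 6 and with an intensity trend. The limma counts of 0 between the neonatal cell types stood beside 232 to 4949 genes at unadjusted p under 0.05, those of 0 between the cardiomyocytes beside 2572 to 3845, and that of 0 against fibroblasts beside 4591. With the titles' groups, or without both neonatal replicate 1 arrays, 0 of the 9 genes were called between the cardiomyocytes (5 at unadjusted p under 0.05 in both). With all arrays and the source names, 22.8% of all genes met that unadjusted threshold between the cardiomyocytes. With genes of mean at least 6, 5 of the 9 genes were called against fibroblasts, where 34.2% of the 10666 genes tested were called.

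Replicate numbers 1 and 2 recur in every group, and replicate 1 deviations correlated at 0.183, 0.268 and 0.207 between the groups, but 2 numbers do not settle a pairing. With the replicate number as a block, 0 genes were called between the neonatal cell types (3678 at unadjusted p under 0.05), and 5 of the 9 genes against fibroblasts, where 26.4% of all genes were called, Ezh1 (limma adjusted p = 0.0421) and Hmga2 (limma adjusted p = 0.0330) among them. Dnmt1 was then called between the cardiomyocytes (limma adjusted p = 0.0422). Without the block 2.30% of all genes were called there, and the share with it is not given here.

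Some differences changed sign, those of Tet1 among them. The titles' groups exchange the neonatal replicate 1 arrays, whose cardiomyocyte and fibroblast markers went with the source names. Between the neonatal cell types the titles' groups gave −0.39 for Dnmt3b, −1.22 for Tet1, −0.35 for Ezh2, −0.28 for Suz12 and 0.72 for Hmga2. Without both neonatal replicate 1 arrays Dnmt3b was −0.18, Suz12 −0.0083 and Hmga2 0.15 there, and the mean of all probe sets gave −0.061 for Dnmt3b. Between the cardiomyocytes the titles' groups gave 0.18 for Dnmt3b and 0.48 for Tet1. Against fibroblasts they gave −0.21 for Dnmt3b and −0.75 for Tet1. Without both replicate 1 arrays these were −0.27 and −0.12, and the mean of all probe sets gave −0.11 for Dnmt3b. With 1 array left out, differences between the neonatal cell types ran from −0.77 to 0.27 for Dnmt1, from −0.16 to 0.57 for Dnmt3b, from −0.66 to 0.15 for Uhrf1, from −0.18 to 0.54 for Ezh1 and from −2.02 to 0.87 for Hmga2. Against fibroblasts they ran from −0.95 to 0.21 for Dnmt3a, from −0.27 to 0.45 for Dnmt3b and from −0.12 to 2.17 for Tet1. An array left alone in its group was assumed to vary like the other groups. Causes were not tested. With 2 arrays a group, calls rest on a spread pooled over groups and genes.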

Other observations

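The INK4 genes Cdkn2a and Cdkn2b are known Polycomb targets that code for inhibitors of the cell cycle; their pattern was picked out after its values were seen. Cdkn2b measured 5.46 and 8.19 in neonatal cardiomyocytes, 11.6 and 8.00 in fibroblasts, and 5.72 and 5.89 in adult cardiomyocytes. Cdkn2a measured 4.05 and 4.16 in neonatal cardiomyocytes, 7.70 and 3.83 in fibroblasts, and 4.48 and 3.90 in adult cells. Both were highest on fibroblast replicate 1, where the medians of leukocyte (11.3), epicardial (10.3) and fibroblast (12.6) markers were also highest; the part of these cells in the levels was not tested.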
